A study of Caenorhabditis elegans with 3 samples.

Results

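The genes described here are the nuclear hormone receptors of the nhr class of the nematode Caenorhabditis elegans, measured in early L4 hermaphrodites with 2-colour DNA arrays. L4 larvae molt into adults, and their germline makes sperm before it turns to oocytes. The members were all probes that the platform annotation assigns to 1 gene with an nhr number, except those of nhr-23 and nhr-25. This gave 246 probes of 236 genes, among 15655 probes of 15168 genes with 1 symbol in all. nhr-12 had no value on any array, so 235 nhr genes were tested, 234 of them with values on all 3 arrays.

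The study held 1 group of 3 preparations of early L4 hermaphrodites. Each was hybridised on its own array, with the early L4 RNA in channel 2 and a wild-type mixed reference in channel 1. This layout was the same on all 3 arrays. A steady difference between the channels thus cannot be told apart from one between early L4 and reference, also where the arrays lie close together. With 1 array per preparation, differences between preparations and between arrays cannot be told apart either. The labels name no allele or treatment for the early L4 worms, do not say from which stages or sexes the reference was mixed, and do not say whether the preparations were separate cultures, so p-values measure the spread between these 3 arrays only. Each value was the log2 of a ratio between the channels, and the ratio was read as early L4 over reference, a likely direction because the descriptions name early L4 first; in what follows "higher" and "rose" mean a positive ratio under that reading, and a log2 ratio of 1 is a 2-fold difference.

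Nuclear hormone receptors are transcription factors with a zinc finger domain that binds DNA and a domain that can hold a small lipid-like ligand, such as a steroid or a fatty acid. C. elegans carries many more of them than mammals do, and most descend from an ancestor related to the mammalian receptor HNF4. A minority belong to subfamilies that are shared with insects and vertebrates. Those studied best act in the gut and the epidermis, where they adjust metabolism, detoxification and development to diet, stress and stage.

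Marker genes described the stage, and preparation 1 differed most from the other preparations. Of 9 listed oocyte genes 8 fell, with a list median between -2.08 and -1.56 on the 3 arrays, and of 9 listed sperm genes 7 rose, with a median between 1.44 and 1.93. Of 11 listed intestinal genes 7 rose, with a median between 1.13 and 1.89. Of 8 listed muscle genes 6 rose, of 8 epidermal genes 2 rose (4 without preparation 1), of 9 neuronal genes 3 fell, and of 7 early embryonic genes 2 fell and 1 rose (0 without preparation 1 or without preparation 2). Across the nhr genes Pearson's r between arrays was 0.478 for preparations 1 and 2, 0.379 for 1 and 3, and 0.652 for 2 and 3; over all genes it was 0.684, 0.643 and 0.809. These correlations are across genes, which share the reference and the channel layout, and are given as descriptions.

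Few nhr genes differed from the reference, and most that did were lower in early L4. Of the 235, 24 fell, 9 rose and 202 did not pass an adjusted p under 0.05 (limma, mean log2 ratio against 0, Benjamini-Hochberg over all genes). Together the 33 called genes were 14% of the class, and 22.7% of all genes were called. The higher genes were 3.83% of the class, against 12.6% of all genes, and the lower genes were 10.2%, against 10.1% of all genes. The share called lower thus lay near that of all genes, while the share called higher was smaller; no test of the class against the other genes was run. In all, 3 nhr genes rose and 11 fell by at least 2-fold, and 14.5% of all genes were called with at least that change.

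The class as a whole lay slightly below the reference. The median of the mean log2 ratios was -0.12 for the nhr genes and -0.01 for all genes. By array it was -0.15, -0.17 and -0.12 for the nhr genes in preparations 1, 2 and 3. Values were below 0 on all 3 arrays for 81 nhr genes, 34.5% of the class, against 27.5% of all genes, and above 0 on all 3 for 25, 10.6%, against 26.1% of all genes. The other 129 had values of both signs or a missing value. Most changes were small: 74% of nhr genes had a mean within 0.5 of 0 on the log2 scale, against 62.4% of all genes. The spread between arrays did not set the class apart, with a median SD of 0.37 for the nhr genes and 0.36 for all genes.

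**Figure D1:**
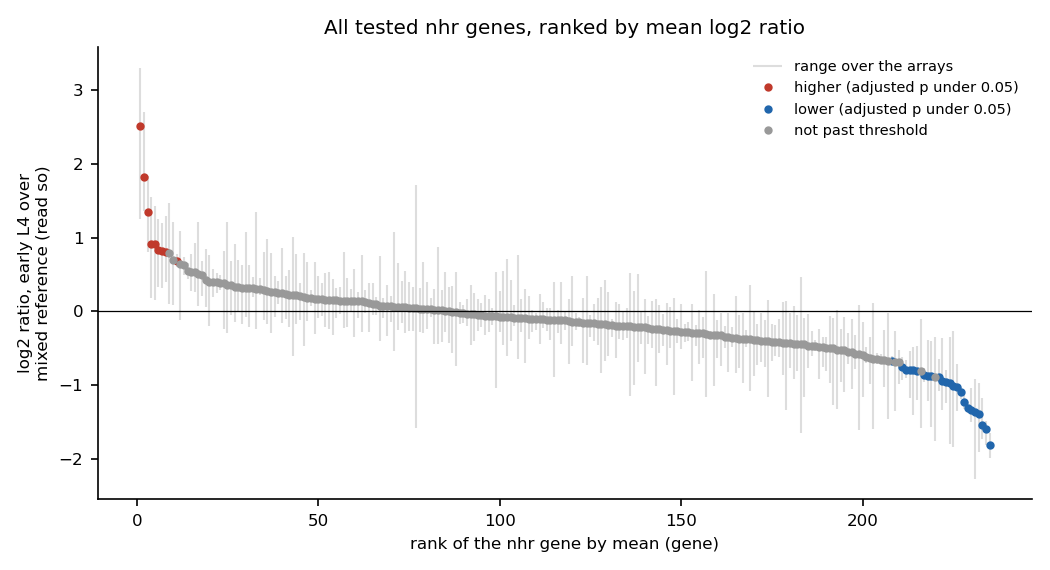
Mean log2 ratio (y axis) of each of the 235 tested nhr genes in order of rank (x axis), with a grey line for the range over the arrays. The 9 higher genes stand at the left and the 24 lower genes at the right, and 202 genes did not pass the threshold.

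The count was lowest when preparation 2 was left out. Without preparation 2, 19 nhr genes passed, of which 3 were higher, against 16% of all genes called and 8.42% called higher. Each fit with an array left out also estimated the spread between arrays anew. In the fit without preparation 2, adjusted p followed the size of the mean among the genes named below as highest and lowest. The part of preparation 2 itself in the lower count was not tested. Without preparation 1 the count was 32, against 26% of all genes, and without preparation 3 it was 25, against 18.2%. The count of genes changed by at least 2-fold was 23 without preparation 3, against 14 with all arrays. With all arrays 14.5% of all genes were called with at least that change. The same share without preparation 3 is not given here, so the shift cannot be read as one of the class. In all, 11 of the 33 calls held under all 8 alternative settings run: nhr-73, nhr-244 and nhr-68 were higher, and nhr-17, nhr-18, nhr-19, nhr-21, nhr-57, nhr-84, nhr-105 and nhr-260 were lower. The share of calls over all genes that held in this way is not given here, so the count is not a trait of the class. The smallest change called was 1.59-fold, and no smaller change in an nhr gene passed with these 3 arrays.

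Of the 9 higher genes, nhr-73 (C27C7.4) was the highest. It had log2 ratios of 1.26, 2.97 and 3.30 on the arrays of preparations 1, 2 and 3, a mean of 2.51 ± 1.10 (SD, n = 3), or 5.70-fold (limma adjusted p = 0.00102). All arrays were above 0, with preparation 1 well below the others. The gene nhr-244 (ZK1025.6) had 1.42, 2.70 and 1.36, a mean of 1.83 ± 0.76 (adjusted p = 0.00184, limma), with preparation 2 the highest. The third was nhr-68 (H12C20.3), with 1.83, 1.43 and 0.80, a mean of 1.35 ± 0.52, or 2.55-fold (adjusted p = 0.00413, limma). NHR-68 is known, with NHR-10, for turning on the genes that break down propionate when vitamin B12 is scarce.

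The other 6 higher genes changed by less than 2-fold. nhr-167 (C49F5.4) had a mean of 0.91 ± 0.69, nhr-8 (F33D4.1) 0.91 ± 0.67, nhr-247 (ZK1037.5) 0.84 ± 0.47, nhr-113 (ZK1025.9) 0.81 ± 0.45, nhr-192 (F57A8.5) 0.80 ± 0.45 and nhr-232 (Y22F5A.1) 0.69 ± 0.09 (SD, n = 3). Their adjusted p-values in limma lay between 0.0348 and 0.0429, and none of the 6 calls held when preparation 2 was left out. A call lost in that fit does not by itself show that the gene depended on preparation 2. The mean of nhr-232 was 0.73 there, above its mean with all arrays, while the means of the others were smaller. With a trend and robust setting for the variance, 4 nhr genes in place of 9 were higher. In that setting 20.7% of all genes were called in either direction, in place of 22.7%. In nhr-232 the 3 arrays lay close together, at 0.78, 0.60 and 0.68, while in nhr-167 they ran between 0.18 and 1.55.

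The lower genes included a set with little spread between arrays. nhr-21 (F21D12.1) was the lowest, with log2 ratios of -1.81, -1.64 and -1.98 on preparations 1, 2 and 3 and a mean of -1.81 ± 0.17 (SD, n = 3), 3.51-fold lower than the reference (limma adjusted p = 0.000423). nhr-260 (C38C3.9) had -1.48, -1.81 and -1.49, a mean of -1.59 ± 0.19 (adjusted p = 0.000787, limma). In both genes the 3 arrays differed by far less than the distance of their mean from 0. nhr-57 (T05B4.2) had -1.72, -1.18 and -1.73, a mean of -1.54 ± 0.32, 2.91-fold lower (adjusted p = 0.00121, limma). nhr-57 is known as a target of the hypoxia factor HIF-1 and serves as a readout of it.

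Next in order were nhr-19 (E02H1.7) at -1.38 ± 0.48, nhr-269 (R08H2.9) at -1.37 ± 0.78, nhr-17 (C02B4.2) at -1.34 ± 0.26, nhr-105 (C06G3.1) at -1.31 ± 0.08, nhr-18 (F44C8.3) at -1.23 ± 0.09 and nhr-84 (T06C12.7) at -1.09 ± 0.08 (SD, n = 3; limma adjusted p between 0.00201 and 0.00867). The arrays lay within a narrow band in nhr-105, at -1.32, -1.38 and -1.23, in nhr-18, at -1.32, -1.13 and -1.23, and in nhr-84, at -1.18, -1.05 and -1.03. nhr-269 owed much of its size to 1 array, with -0.92 and -0.92 on preparations 1 and 2 and -2.26 on preparation 3, and its adjusted p was 0.0556 without preparation 3 (limma). From nhr-19 to nhr-105 the means differed by less than the SD of each gene.

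The 12 lowest were completed by nhr-181 (F38H12.3) at -1.02 ± 0.32, nhr-221 (T24A6.8) at -1.01 ± 0.78 and nhr-150 (C06B8.1) at -0.97 ± 0.74 (SD, n = 3). In nhr-221 and nhr-150 preparation 1 was the lowest, at -1.83 and -1.80, and preparation 3 the nearest to 0, at -0.27 and -0.35, and both calls were lost without preparation 1 (limma adjusted p = 0.0983 and 0.0908). The call of nhr-181 was lost without preparation 3 (limma adjusted p = 0.0825). Of the remaining 12 lower genes, with means between -0.95 and -0.67, the intestinal receptor nhr-76 (C05G6.1), known for carrying a serotonin signal to fat stores, had -1.40, -0.51 and -0.48. Its mean was -0.80 ± 0.52 (limma adjusted p = 0.047). The others, named after their values were seen, were nhr-4 (F32B6.1) at -0.95 ± 0.25, nhr-100 (C28D4.1) at -0.94 ± 0.52, nhr-213 (T06C12.13) at -0.89 ± 0.23, nhr-34 (F58G6.5) at -0.88 ± 0.61, nhr-42 (C33G8.6) at -0.87 ± 0.43, nhr-152 (C12D5.2) at -0.86 ± 0.10, nhr-107 (C33G8.11) at -0.79 ± 0.34, nhr-137 (C56E10.4) at -0.79 ± 0.12 and nhr-97 (H27C11.1) at -0.75 ± 0.16, with nhr-10 and nhr-120 given below (SD, n = 3 each). Preparation 1 was the farthest from 0 in 12 of the 24 lower genes, preparation 3 in 9 and preparation 2 in 3. Over all genes, too, preparation 1 had the widest values, with an SD across genes of 0.94, against 0.84 and 0.80 for preparations 2 and 3.

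**Figure D2:**
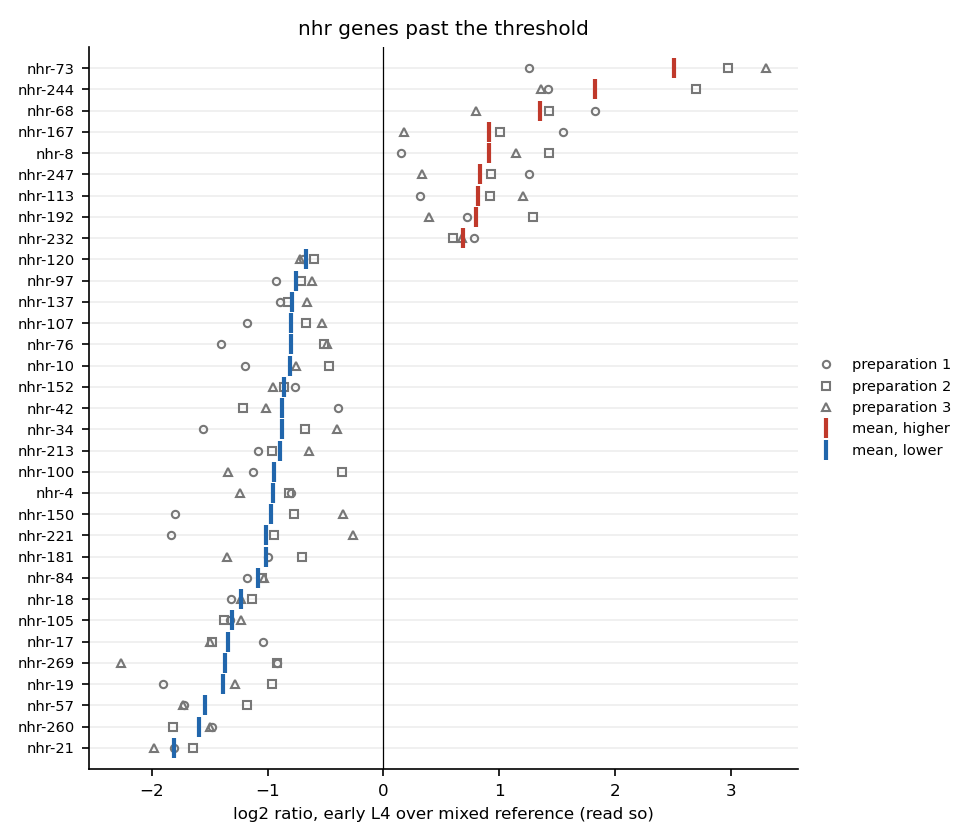
Log2 ratios (x axis) of the 33 nhr genes past the threshold, 1 per row in order of mean; open symbols are the 3 preparations and bars the means. All 3 preparations lay on 1 side of 0 in each of the 33 genes, with preparation 1 far from the others in nhr-73, nhr-8 and nhr-76.

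Just inside the threshold stood nhr-120 (C25B8.6), with a mean of -0.67 (limma adjusted p = 0.0472), nhr-76 and nhr-232. Just outside stood nhr-193 (F57G8.6) at -0.69 (limma adjusted p = 0.0504), nhr-206 (R07B7.13) at -0.65 (adjusted p = 0.0514) and nhr-143 (F59E11.11) at -0.89 (adjusted p = 0.0552). In all, 56 of the 235 nhr genes had an unadjusted p under 0.05 in limma, 40 of them below 0 and 16 above. Of all 15159 genes 5255 did, 2511 of them below 0 and 2744 above. The largest spread was in nhr-189, with -1.58, 1.71 and 0.00 on the arrays of preparations 1, 2 and 3 (SD 1.64) and a mean of 0.04. With 1 probe and 1 array per preparation, its level in a preparation cannot be told apart from noise of an array. It was named after its values were seen.

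Both measured receptors of propionate and vitamin B12 sensing passed, in opposite directions. nhr-68 rose, as given above, and nhr-10 (B0280.8) fell, with log2 ratios of -1.20, -0.47 and -0.76 on preparations 1, 2 and 3 and a mean of -0.81 ± 0.37 (SD, n = 3; limma adjusted p = 0.0329). The 3 arrays of nhr-10 were all below 0 and those of nhr-68 all above it. The call of nhr-10 was lost without preparation 1 (limma adjusted p = 0.0623) and without preparation 3 (0.0918). NHR-114, which acts on the methionine cycle, was not analysed here.

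The genes that these receptors are known to control were high in early L4. All 5 listed genes of the propionate shunt, the route that breaks propionate down without vitamin B12, rose, and their median was 2.54. The acyl-CoA dehydrogenase gene acdh-1, the first enzyme of the shunt and a widely used sensor of vitamin B12 state, had 2.90, 4.10 and 3.88 on preparations 1, 2 and 3, a mean of 3.62 ± 0.64 (SD, n = 3). The dehydrogenase gene hphd-1 had 2.85 ± 0.34, the enoyl-CoA hydratase gene ech-6 2.54 ± 0.31, the hydrolase gene hach-1 1.92 ± 0.50 and the semialdehyde dehydrogenase gene alh-8 0.91 ± 0.21. All 5 were above 0 on each array, and limma adjusted p-values were at most 0.0141. The lists of pathway genes were made with earlier results of these data known.

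Of 5 listed genes of the methionine cycle and its products 4 rose, and the median over the 5 was 1.54. The S-adenosylmethionine synthetase gene sams-1 had 2.36 ± 0.31, the methylenetetrahydrofolate reductase gene mthf-1 2.16 ± 0.63, the methyltransferase gene pmt-2 1.54 ± 0.28 and the methionine synthase gene metr-1 1.13 ± 0.69 (SD, n = 3). The methionine synthase reductase gene mtrr-1 had 0.37 ± 0.34 (limma adjusted p = 0.289). These 2 lists moved beside the intestinal markers, of which 7 of 11 rose with a median of 1.32; the part of tissue content in these ratios was not tested. In whole worms, fewer or more cells of a type and less or more RNA per cell cannot be told apart.

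Of the 7 receptors of fat metabolism 0 passed in limma, while 14% of the nhr class and 22.7% of all genes did. Only nhr-80 had an unadjusted p under 0.05. Means were below 0 in 6 of the 7, and in 63.4% of the class. The difference from the class was not tested. NHR-49, which activates fatty acid oxidation and desaturation, had -0.73, -0.02 and -0.22 for its gene (K10C3.6) on preparations 1, 2 and 3, a mean of -0.32 ± 0.37 with a 95% confidence interval between -0.84 and 0.20 (limma adjusted p = 0.365). The gene of its partner in sphingolipid breakdown, nhr-66, had -0.50 ± 0.66, and that of nhr-13, which works with NHR-49 and NHR-80, had -0.30 ± 0.29. nhr-62, needed for long life under dietary restriction, had -0.48 ± 0.37. The HNF4-like genes nhr-69 and nhr-64 had -0.47 ± 0.18 and -0.30 ± 0.38 (SD, n = 3 each).

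nhr-80 (H10E21.3) was the 1 receptor of fat metabolism above 0. NHR-80 promotes fatty acid desaturation, and its gene had 0.09, 1.21 and 0.81 on preparations 1, 2 and 3, a mean of 0.70 ± 0.57 (SD, n = 3; limma adjusted p = 0.081). Without preparation 1, the array nearest to 0, it passed, with a mean of 1.01 (limma adjusted p = 0.0117). Of 8 measured genes listed for the NHR-49 pathway 3 fell and 0 rose in limma (4 and 0 at an unadjusted p under 0.05), and the median over the 8 was -0.59. Those that fell were the acyl-CoA synthetase gene acs-2, a much used target of NHR-49, at -4.15 ± 0.65, the hydroxyacyl-CoA dehydrogenase gene hacd-1 at -1.45 ± 0.58, and the glyoxylate cycle gene icl-1 at -0.82 ± 0.48. The desaturase genes fat-5 and fat-7 had -0.66 ± 0.58 and -0.41 ± 0.62, the flavin monooxygenase gene fmo-2 had -0.53 ± 0.57, the Mediator subunit gene mdt-15 had 0.21 ± 0.65 and the lipid regulator gene sbp-1 had -0.21 ± 0.26 (SD, n = 3; limma adjusted p between 0.102 and 0.631 for these 5).

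Receptors that respond to xenobiotics, metals and oxygen did not move together: of 5 measured, nhr-8 rose, nhr-57 fell and 3 did not pass. NHR-8 acts in resistance to toxic compounds and in cholesterol balance, and its gene had 0.15, 1.43 and 1.14 on preparations 1, 2 and 3. The array of preparation 1 was near 0 and the others were not, and the call (mean 0.91 ± 0.67, limma adjusted p = 0.0403) was lost without preparation 2 (0.257) and without preparation 3 (0.114). nhr-14, which acts in iron uptake, had -0.55 ± 0.48. nhr-176, needed for the response to the drug thiabendazole, had 0.40 ± 0.53, and nhr-45, linked to detoxification under mitochondrial stress, had 0.25 ± 0.16 (SD, n = 3 each; limma adjusted p between 0.141 and 0.452).

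Genes listed downstream of such receptors were mixed as well. The infection response genes irg-5, irg-4 and irg-6, known to depend on NHR-86 in the response to an immune-stimulating compound, rose, with means of 6.03 ± 0.44, 2.49 ± 0.59 and 0.72 ± 0.26, and nhr-86 itself was not analysed here. Of the ferritin genes, listed here with the iron receptor NHR-14, ftn-1 fell, with -1.89 ± 0.33, and ftn-2 had -0.01 ± 0.93, with -1.07 on preparation 1 and 0.50 and 0.55 on the others. The cytochrome P450 gene cyp-35D1, which NHR-176 controls, had 0.24 ± 0.73 (SD, n = 3 each). Counted together, 3 of 6 rose, 1 fell and 2 did not pass.

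**Figure D3:**
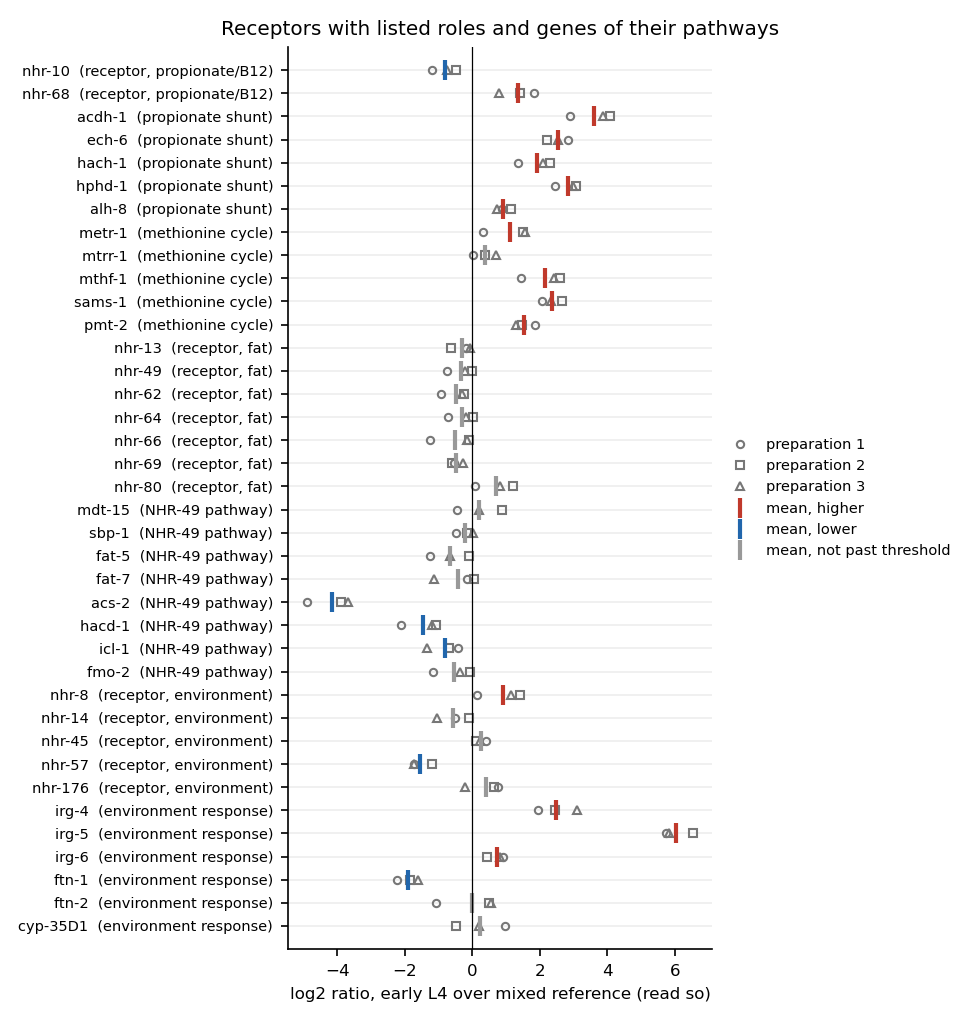
Log2 ratios (x axis) of receptors with listed roles and of genes of their pathways, 1 gene per row; open symbols are the 3 preparations and bars the means. nhr-68 and all 5 propionate shunt genes lay above 0 on each array, nhr-10 and acs-2 below 0, and 0 of the 7 receptors of fat metabolism passed, with means between -0.50 and 0.70.

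Of 7 measured genes of conserved subfamilies only nhr-8 passed. That is 14.3%, near the 14% of the nhr class, and 22.7% of all genes were called. Of 7 measured genes of development and tissue 0 passed in limma, and 1 was lower at an unadjusted p under 0.05. nhr-6, nhr-67 and nhr-85 stand in both lists, so these counts overlap. With 7 genes per list, no difference from the class was tested. nhr-67, the tailless-related factor of the anchor cell and vulva, had 0.04, -0.26 and -0.13 on preparations 1, 2 and 3, a mean of -0.11 ± 0.15 with a 95% interval between -0.59 and 0.36. nhr-6, the NR4A-type factor of the spermatheca, had -0.09, 0.77 and -0.28, so its arrays fell on both sides of 0. nhr-85, related to Rev-erb receptors and known for larval pulses with the molting cycle, had -0.76, -0.34 and -0.12, a mean of -0.40 ± 0.33 (limma adjusted p = 0.244).

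The others of these lists had means between -0.64 and 0.33. The conserved receptors nhr-41, nhr-48 and nhr-111 had -0.41 ± 0.22, -0.44 ± 0.38 and 0.11 ± 0.35. nhr-2, an early embryonic receptor, had -0.65, -0.56 and -0.71, with a mean of -0.64 ± 0.08 (limma adjusted p = 0.0555); its 3 arrays agreed closely, and it just missed the threshold. nhr-60 of the epidermal seam had 0.33 ± 0.53, nhr-31 of the excretory cell 0.13 ± 0.16, and nhr-40, needed for muscle development, -0.24 ± 0.33 (SD, n = 3 each).

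Nuclear receptors outside the members are given for comparison. nhr-23, a driver of the molt, rose, with 0.55, 0.92 and 1.21 (mean 0.89 ± 0.33, limma adjusted p = 0.0193), and nhr-25 had -0.62 ± 0.59 (adjusted p = 0.123, limma). The dafachronic acid receptor daf-12 had -0.49 ± 0.73. Of 6 listed genes of its hormone pathway, the Rieske oxygenase gene daf-36 rose, with 1.67 ± 0.18, and the steroid dehydrogenase gene hsd-1 fell, with -1.27 ± 0.18, while the other 4 did not pass. Neither sex-1 of the X chromosome count (-0.36 ± 0.11), unc-55 of motor neuron identity (-0.25 ± 0.19), fax-1 of interneurons (-0.19 ± 0.31), odr-7 of an olfactory neuron (0.08 ± 0.47) nor the zinc sensor hizr-1 (0.09 ± 0.57) passed (SD, n = 3 each).

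The ceh and hlh classes hold transcription factors of other families. Of 55 homeobox genes of the ceh class 8 fell and 0 rose in limma, with 13 below and 0 above 0 at an unadjusted p under 0.05. Of 21 genes of the hlh class, basic helix-loop-helix factors, 2 fell and 0 rose, with 3 and 0 at an unadjusted p under 0.05. Among the nhr genes 3.83% rose and 10.2% fell, against 14.5% lower in the ceh class, 9.52% lower in the hlh class, and 12.6% higher and 10.1% lower over all genes. The medians were -0.20 for the ceh class and 0.02 for the hlh class, against -0.12 for the nhr genes. The difference between the classes was not tested.

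Most nhr genes lie on chromosome V, and the calls were spread over all 6 chromosomes (gene table of assembly WBcel235, which matched 233 of the 235). On chromosome V 4 of 148 nhr genes rose and 12 fell, together 10.8%, against 19.5% of all genes on that chromosome. On chromosome IV 1 of 23 rose and 6 fell, 30.4%, against 27.8% of all genes there. Chromosome I, with 23 nhr genes tested, held 3 of the 9 higher genes and 0 of the lower genes in limma (2 were lower at an unadjusted p under 0.05). The higher genes were 13% of the nhr genes there, against 13.5% of all genes on that chromosome, of which 12.1% fell. The 10 nhr genes annotated as pseudogenes had means between -0.58 and 0.42, and 0 passed in limma, adjusted or at an unadjusted p under 0.05. In the whole class 14% passed the adjusted threshold, and the difference was not tested.

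**Figure D4:**
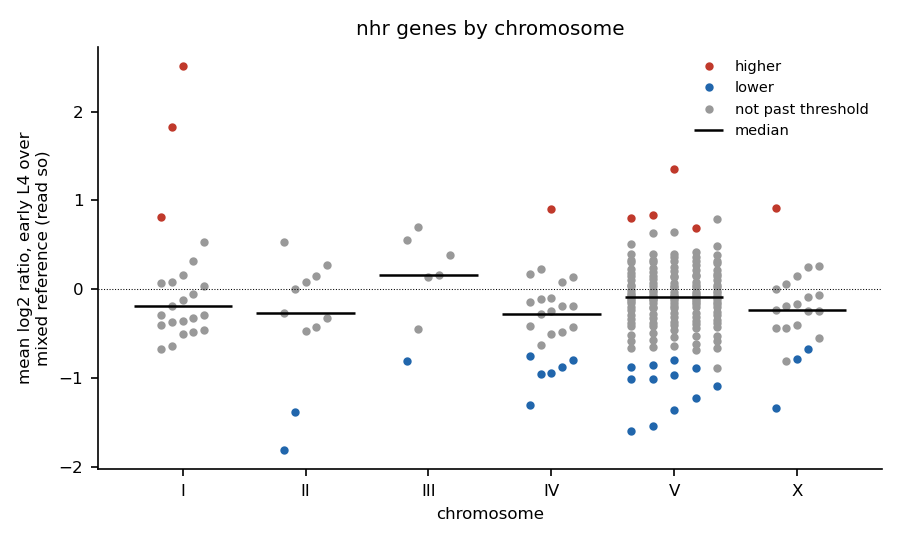
Mean log2 ratio (y axis) of nhr genes by chromosome (x axis); each point is a gene, black lines are medians, and the sideways offset within a chromosome only separates points. The 3 higher genes of chromosome I lie above the other nhr genes of that chromosome, and chromosome V holds 148 of the genes.

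The 3 higher genes of chromosome I lie close together, in a stretch where nearly all genes were higher. nhr-73, nhr-244 and nhr-113 fall within 12 successive genes of the gene table, of which 10 were tested: 9 rose and 1, nhr-259, did not pass, with 0.16 ± 0.22 (limma adjusted p = 0.647). Between them stood ZK1025.3 at 4.27 ± 0.48, ZK1025.8 at 3.31 ± 1.22, ZK1025.2 at 3.24 ± 0.76 and bah-1, known for the attachment of bacterial biofilm to the head, at 2.75 ± 0.64, followed by gtnt-53 at 1.60 ± 1.05 and C27C7.1 at 1.36 ± 0.56 (SD, n = 3 each). Among all 9170 stretches of 12 successive genes with at least 10 tested, 10 held 9 or more higher genes, or 0.109%, and these overlapping stretches fell at 2 places in the genome. Of the 13 genes tested among the 10 on either side, 3 rose and 10 did not pass. The stretch was chosen after its values were seen, so it has no test.

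The 3 receptors did not share an order of arrays within that stretch. nhr-73 and nhr-113 were lowest on preparation 1 and highest on preparation 3, and nhr-244 was highest on preparation 2. nhr-74, next but one to nhr-73 on the other side, had 0.28, 0.54 and 0.78 on preparations 1, 2 and 3, a mean of 0.53 ± 0.25 (limma adjusted p = 0.118). The probe sequences were not used here, so RNA shared between probes of related genes was not tested.

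**Figure D5:**
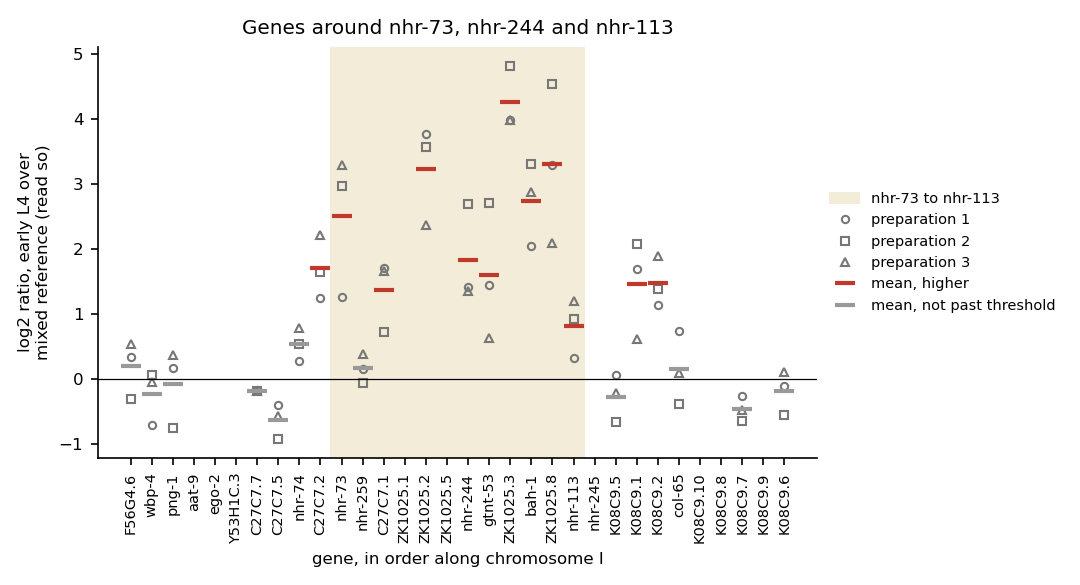
Log2 ratios (y axis) of successive genes along chromosome I (x axis, gene order only); open symbols are the 3 preparations, bars are means, and genes with no symbol were not analysed here. In the shaded stretch from nhr-73 to nhr-113, 9 of 10 tested genes rose, the highest being ZK1025.3 at 4.27, while nhr-259 had a mean of 0.16 and did not pass.

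The gene table held 47 runs of 2 or more successive nhr genes, the longest with 8 genes, and 66 neighbouring pairs had both genes tested. In 1 pair, nhr-107 and nhr-42, both genes fell (-0.79 ± 0.34 and -0.87 ± 0.43), in 7 pairs 1 gene of the pair was called, and in 0 pairs did both rise or the calls oppose each other. Both genes passed in the same direction in 1.52% of the nhr pairs and in 4.70% of the 11812 neighbouring pairs of all genes, where 323 pairs were both higher, 232 both lower and 282 opposite, and 3835 had 1 gene called; the difference was not tested. The median absolute difference between neighbours was 0.38 on the log2 scale for nhr pairs and 0.55 for those of all genes. The nhr genes also lay nearer 0 in general, with a median absolute mean of 0.29 against 0.36 for all genes. Fewer of them were called (14% against 22.7%). Pairs of nhr genes that are not neighbours were not compared, so whether these values are particular to neighbours was not tested. Across the 66 pairs Pearson's r between neighbours was 0.121, and across all pairs 0.142; these values are descriptions, since a gene can stand in more than 1 pair. In the run of 8, from nhr-186 to nhr-124, all 8 were tested and 0 passed in limma, adjusted or at an unadjusted p under 0.05. On chromosome V, where the run lies, 10.8% of nhr genes passed the adjusted threshold. Apart from the stretch on chromosome I and the pair nhr-107 and nhr-42, some called genes lay at most 10 genes apart. These were nhr-100 and nhr-97, nhr-120 and nhr-137, and nhr-213 and nhr-84, all lower. Of the 33 called nhr genes 24 were lower, and the share of such pairs over all genes is not given here.

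Some nhr genes were spotted more than once, which gives a check within each array. Of 10 such genes 8 had both spots tested, and 7 of these 8 had the same sign in both. The median absolute difference between spots was 0.34 on the log2 scale, and the largest, 0.92, was in nhr-82, whose spots had means of -0.22 and -1.14. In nhr-82 and nhr-165 1 spot passed on its own (limma adjusted p = 0.0185 and 0.0218) while the mean of both spots did not.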

How the data were processed

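The authors deposited 1 log2 ratio per probe and array. Neither the scanner, dyes, background correction, normalization nor direction of the ratio is stated in the labels. Raised as powers of 2, at least 99.96% of values gave whole thousandths (within 0.01), so ratios had been kept to 3 decimals before the log. The arrays had values for 19905, 19841 and 19872 of 20000 probes in preparations 1, 2 and 3; their number limits the precision, and spot brightness was not used here.

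The median of each array (0.054, -0.082 and -0.025) was subtracted from its values, and spots of a gene were averaged. The 15159 genes with values on at least 2 arrays were tested for a mean other than 0 in R 4.3.3 by limma 3.58.1 (lmFit, eBayes), with 7.59 prior degrees of freedom, a two-sided p adjusted by Benjamini-Hochberg over all genes, and a threshold of 0.05. The reference has no arrays of its own. The spread of its channel from array to array enters the ratios, while spread between separately made references was not estimated. The fit was tested on simulated ratios.

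Named by rule were the 12 highest and 12 lowest called nhr genes, those of 5 role lists and the 3 nearest the threshold on either side. The members, lists and alternatives were chosen with earlier results of these data known. Symbols come from the platform annotation and gene order from the RefSeq gene table of WBcel235. Coordinates are not printed, since the sources used here do not give the build behind the probes, and sequences were not used.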

Additional observations from a re-analysis of the deposited data

How the results depend on the processing

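The number of nhr genes past the threshold was 33, where 22.7% of all genes were called. It became 36 without centring (23.6% of all genes) and 41 when the arrays were quantile-normalized (26%). It was 34 with genes measured on all 3 arrays (22.9%) and 26 with trend and robust eBayes (20.7%). With each probe fitted on its own and the spot of smallest p kept for each gene, it was 35 (23.1%). Keeping the spot by its p favours calls in genes spotted more than once. With 1 preparation left out the number of nhr genes past the threshold was 19 to 32, the lowest without preparation 2, against 16% to 26% of all genes. Of the 33 genes, 24, 18 and 19 were among the 32, 19 and 25 called without preparations 1, 2 and 3, and 11 were called in all 8 settings. The matching shares of the calls over all genes are not given here. The higher genes numbered 9, and 12.6% of all genes were called higher. With trend and robust eBayes they numbered 4, and with 1 preparation left out 3 to 10. The 3 were found without preparation 2, where 8.42% of all genes were called higher. The genes changed by at least 2-fold numbered 14, beside 14.5% of all genes, and 18 to 23 with 1 preparation left out. For the latter counts the share of all genes is not given here. The cause of these shifts was not tested. The median of the nhr genes kept its sign and moved by less than the spread between arrays in all 8 settings. Of the 33 called genes, 0 changed direction in these settings, and since all 3 of their arrays had 1 sign, leaving out an array could not turn them. Over 47 named genes, called or not, and 8 settings, 334 of 376 comparisons kept direction and side of the threshold, 28 lost the call, 12 gained it and 2 reversed. The reversals were nhr-111, at -0.023 without preparation 1 (leave-one-out range -0.023 to 0.310), and nhr-6, at -0.183 without preparation 2 (range -0.183 to 0.343), both called in no setting. The counts of the pathway lists and of the stretch on chromosome I, recomputed after the data were seen, stayed within 1.5 times their value. No paired analysis was possible because all 3 arrays belong to 1 group. Without spot brightness, what signal over background limits was not examined here.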
